A study of Rhododendron with 15 samples.

Results

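The Rubisco activase genes described here are MSTRG.9620, annotated as Rubisco activase 1, and MSTRG.22136, annotated as Rubisco activase 2. They were picked by identifier, with their levels in these libraries already known, and are 2 of the 29985 genes listed for leaves of Rhododendron 'xiaotaohong', a woody ornamental. Messenger RNA selected by its polyA tail was sequenced from 5 groups of 3 libraries each: leaves with melatonin applied at 35 °C and 40 °C, and leaves without melatonin at 25 °C, 35 °C and 40 °C. The groups without melatonin, that at 25 °C among them, are all labelled normal. How much melatonin was applied, how long the heat lasted and how old the plants were is not stated in the sources used here. All 5 groups share the variety and the tissue, and the series title places the work in the tolerance of high temperature. A melatonin group at 25 °C was not analysed here.

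Rubisco fixes carbon dioxide in the chloroplast, and its active sites become blocked by tightly bound sugar phosphates. Rubisco activase, a nucleus-encoded ATPase of the chloroplast stroma, remodels the blocked enzyme so that the sugar phosphate is released. Activase proteins of many temperate plants lose activity at moderately high temperature, and several species carry more than 1 activase gene or form, which can differ in heat stability and in control by thioredoxin.

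Both genes were among the 26183 that passed the count filter, and totals per library were 54300447 to 68267949 counts. Leaf mesophyll was marked by 11 loci for chlorophyll a-b binding proteins, whose summed FPKM (fragments scaled by transcript length and library total) was between 12903 and 12979 at 35 °C with melatonin and between 10650.0 and 10750.4 at 40 °C with melatonin. Without melatonin the sum was between 14755 and 15703 FPKM at 25 °C, between 14094 and 14981 at 35 °C and between 1987 and 2002 at 40 °C. The 2 loci described as Rubisco small subunit, also taken as a mesophyll marker, fell far less at 40 °C. With melatonin they summed to 1946–2645 FPKM at 35 °C and 2147–3268 at 40 °C. When none was applied they summed to 2140–2190 FPKM at 25 °C, 1716–2689 at 35 °C and 1389–1441 at 40 °C. Other cell types were marked by 8 sieve element occlusion loci, whose sum was 77.1–78.5 FPKM at 35 °C and 44.1–47.3 at 40 °C with melatonin, and 221–223 FPKM at 25 °C, 398–406 at 35 °C and 29.5–30.6 at 40 °C when none was applied. Epidermal 3-ketoacyl-CoA synthases, 16 loci, summed to 519–531 FPKM at 35 °C and 83.3–87.3 at 40 °C with melatonin, and to 472–501 FPKM at 25 °C, 351–367 at 35 °C and 83.9–93.4 at 40 °C when none was applied. The 71 loci for GDSL esterases, the other epidermal marker, summed to 285–293 FPKM at 35 °C and 152–155 at 40 °C with melatonin. When none was applied they summed to 202–207 FPKM at 25 °C, 201–216 at 35 °C and 190–207 at 40 °C. The 3 cellulose synthases of secondary walls summed to 5.34–5.77 FPKM at 35 °C and 4.35–4.92 at 40 °C with melatonin. Without it they summed to 4.49–5.43 FPKM at 25 °C, 4.08–4.24 at 35 °C and 5.99–6.30 at 40 °C. No locus matched the KAT1 channel or the xylem cysteine protease. The part of these markers in the activase values was not tested, and in bulk leaf RNA fewer cells of a type cannot be told apart from less RNA per cell. The labels do not say whether libraries came from separate plants, so errors and p-values measure only how these samples vary, which may be technical variation.

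MSTRG.9620, the locus of Rubisco activase 1 (gene name Rhsim05G0195600), lies on the minus strand of chromosome 5 at 31570269 to 31573635, spans 3367 bp and has 3 transcript models. MSTRG.22136, the locus of Rubisco activase 2 (Rhsim13G0077400), lies on the plus strand of chromosome 13 at 7741349 to 7745360, spans 4012 bp and also has 3 models. Coordinates are those of the deposited table, and the genome build behind them is not stated in the sources used here. The loci share 20 gene ontology terms.

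Rubisco activase 1 was among the most abundant transcripts of the leaf at 40 °C with melatonin and a minor one at 25 °C. With melatonin its libraries had 182, 178 and 181 FPKM at 35 °C, and 1651, 1654 and 1653 FPKM at 40 °C. Without melatonin they had 9.59, 10.2 and 9.20 FPKM at 25 °C, 170, 167 and 175 FPKM at 35 °C, and 153, 149 and 159 FPKM at 40 °C. The groups fall on 3 levels, with the 40 °C melatonin libraries highest, the 25 °C libraries lowest, and the other 9 libraries between 149 and 182 FPKM. With melatonin the means were 180.5 ± 2.24 FPKM at 35 °C and 1653 ± 1.66 at 40 °C, and without it 9.67 ± 0.523 at 25 °C, 171 ± 4.33 at 35 °C and 154 ± 4.75 at 40 °C (SD, n = 3 each).

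Ranked by FPKM among all 29985 genes of a library, Rubisco activase 1 stood between places 309 and 312 at 35 °C with melatonin and at 17 or 18 at 40 °C with melatonin. Without melatonin it stood between 8917 and 9514 at 25 °C, between 337 and 361 at 35 °C and between 500 and 531 at 40 °C. Its share of all counts was 0.282% at 40 °C with melatonin and 0.00164% at 25 °C. At 25 °C it still had 884 to 999 counts per library, which limits counting error but does not show which locus the reads came from.

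In the fit over all genes, Rubisco activase 1 had a log2 fold change of 4.08 ± 0.0393 (SE) at 35 °C over 25 °C, and of 4.08 ± 0.0393 at 40 °C over 25 °C. In FPKM the levels were 17.6 and 15.9 times that at 25 °C. The melatonin effect at 40 °C was a fitted log2 fold change of 3.24 ± 0.0371, and the deposited FPKM levels differed 10.8-fold. The fit rescales counts between libraries and the FPKM values are as deposited, so fitted changes and FPKM ratios do not convert exactly. No p-value is given for either activase, since both genes were chosen with these values known. For scale, edgeR's quasi-likelihood test with Benjamini-Hochberg adjustment called 49.1% of the tested genes between 35 °C and 25 °C, 75.9% between 40 °C and 25 °C, 69.3% between 40 °C and 35 °C, 22.0% for melatonin at 35 °C and 59.1% for melatonin at 40 °C. Called means an adjusted p under 0.05 here and throughout.

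Among 17516 tested genes with a group mean of at least 5 FPKM, 171 had a larger fold change than Rubisco activase 1 at 35 °C over 25 °C, and 437 had a larger one for melatonin at 40 °C. Only 14 of them, Rubisco activase 1 among them, had a log2 fold change of 3 or more in both of these comparisons, which share no libraries. This count is a description, since the gene was picked for such values.

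The middle level of Rubisco activase 1 did not resolve further. In FPKM the mean at 40 °C lay below that at 35 °C, which was 1.11-fold higher, by 17.0 FPKM against a group SD of up to 4.75. The 35 °C melatonin libraries lay 1.06-fold above the 35 °C libraries, by 9.87 FPKM against an SD of up to 4.33. Neither pair of groups overlapped in FPKM, but the fitted log2 fold changes were -0.001 ± 0.0341 for 40 °C over 35 °C and -0.0234 ± 0.0341 for melatonin at 35 °C. The sign for 40 °C over 35 °C turned with RLE scaling (0.0656). That for melatonin at 35 °C was the same with RLE scaling and turned with limma on log2(FPKM + 1) (0.0809), which changes both the test and the input, and when 35 °C replicate 1 was left out (0.0009).

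Rubisco activase 2 was one of the leading transcripts of the leaf at 25 °C and was lower in every other group. With melatonin it had 3594, 3580 and 3578 FPKM at 35 °C, and 2068, 2106 and 2116 FPKM at 40 °C. Without melatonin it had 5167, 5127 and 5137 FPKM at 25 °C, 4615, 4642 and 4642 FPKM at 35 °C, and 600.4, 582 and 583 FPKM at 40 °C. No library of any group overlapped with another group, and the order from low to high was 40 °C, 40 °C with melatonin, 35 °C with melatonin, 35 °C and 25 °C. Means were 3584 ± 9.07 FPKM at 35 °C and 2097 ± 25.5 at 40 °C with melatonin, and 5143 ± 20.8 at 25 °C, 4633 ± 15.7 at 35 °C and 588 ± 10.3 at 40 °C when none was applied (SD, n = 3 each).

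By FPKM, Rubisco activase 2 ranked 6 of 29985 genes at 35 °C with melatonin and 12 or 13 at 40 °C with melatonin. Without melatonin it ranked 3 at 25 °C, 3 or 4 at 35 °C and between 68 and 74 at 40 °C. It took 0.146% of all counts at 40 °C and 1.27% at 25 °C. The fitted log2 fold changes were -0.21 ± 0.0170 at 35 °C over 25 °C, -3.04 ± 0.0184 at 40 °C over 25 °C and -2.83 ± 0.0182 at 40 °C over 35 °C. In FPKM the level at 40 °C was 11.4% of that at 25 °C.

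**Figure D1:**
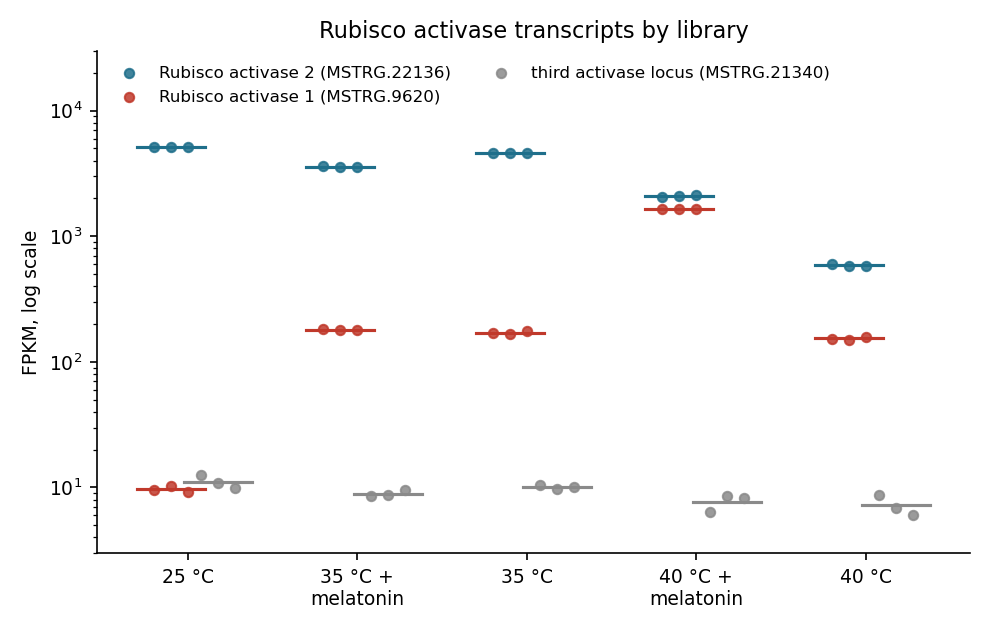
FPKM of the activase loci in each of the 15 libraries, on a log axis, by group; points are libraries and lines are group means of 3. Rubisco activase 1 sits at 1651 to 1654 FPKM at 40 °C with melatonin and at 9.20 to 10.2 at 25 °C, while Rubisco activase 2 is lowest at 40 °C, at 582 to 600.4 FPKM, and the other locus described as activase, MSTRG.21340, stays at a mean of 7.19 to 11.1 FPKM.

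Rubisco activase 2 was lower with melatonin at 35 °C and higher with it at 40 °C. At 35 °C its FPKM level was 77.4% of that without melatonin, and the fitted log2 fold change was -0.47 ± 0.0171. At 40 °C its FPKM level was 3.56-fold that without melatonin, and the fitted log2 fold change was 1.64 ± 0.0175. The melatonin effect at 40 °C minus that at 35 °C was 2.12 ± 0.0244 for Rubisco activase 2 and 3.26 ± 0.0495 for Rubisco activase 1, on the log2 scale. Among all tested genes, 48.5% had a melatonin effect that differed between the temperatures by edgeR's quasi-likelihood test, 27.2% with the higher effect at 40 °C and 21.3% with the lower. At 40 °C with melatonin, Rubisco activase 2 was at 40.8% of its 25 °C level and Rubisco activase 1 at 171-fold its 25 °C level.

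Added together on the per-length scale, the activase transcripts were far lower at 40 °C without melatonin than in any other group. The sum averaged 3765 ± 10.7 FPKM at 35 °C and 3749.6 ± 26.9 at 40 °C with melatonin, and 5153 ± 20.6 FPKM at 25 °C, 4803 ± 16.9 at 35 °C and 742 ± 10.9 at 40 °C when none was applied (SD, n = 3 each). The sum at 40 °C was 14.4% of that at 25 °C. With melatonin it was 5.05-fold higher than without at 40 °C, which is 72.8% of the 25 °C sum and 99.6% of the sum at 35 °C with melatonin.

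The near-equal sums of the melatonin groups were made up differently. Rubisco activase 1 gave 4.80% ± 0.0497 of the summed FPKM at 35 °C with melatonin and 44.1% ± 0.278 at 40 °C with melatonin. Without melatonin it gave 0.188% ± 0.0105 at 25 °C, 3.55% ± 0.0857 at 35 °C and 20.7% ± 0.607 at 40 °C (SD, n = 3 each). These shares do not depend on the scaling between libraries. Put the other way, Rubisco activase 2 was 1.27-fold above Rubisco activase 1 at 40 °C with melatonin and 533-fold above it at 25 °C.

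**Figure D2:**
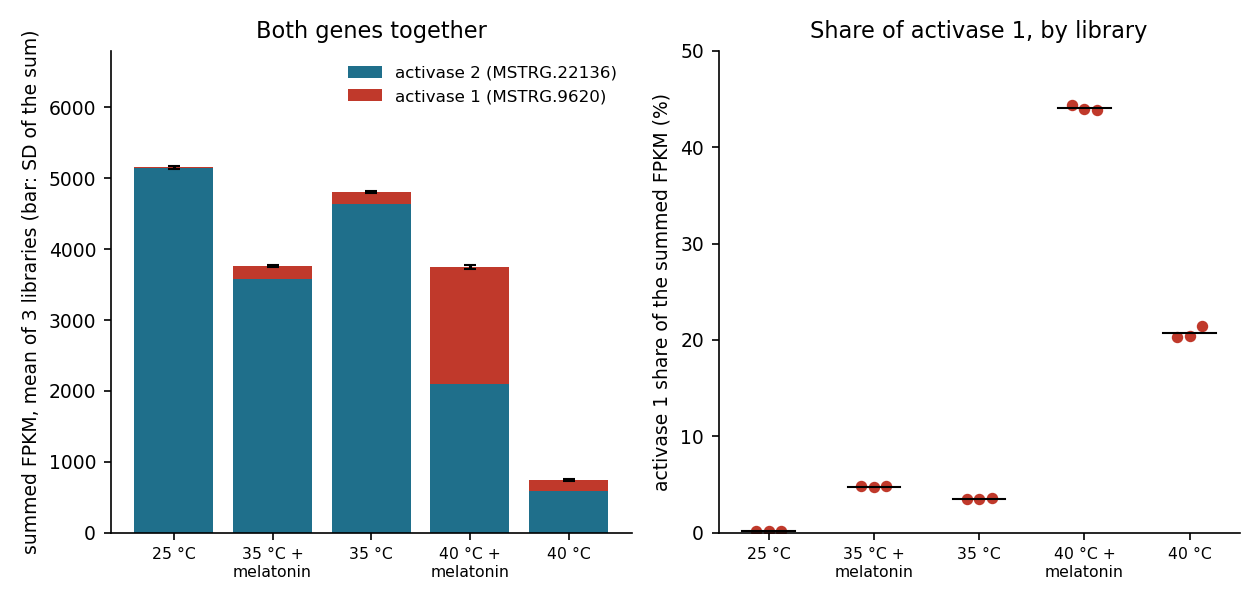
Left, mean summed FPKM of both activase genes by group as stacked bars, with error bars for the SD of the sum (n = 3). Right, the percentage of that sum from Rubisco activase 1 in each library (points) with group means (lines), which is 44.1% at 40 °C with melatonin and 20.7% at 40 °C without, where the sum is lowest at 742 FPKM.

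Another locus described as Rubisco activase was weakly expressed in all groups. MSTRG.21340 (Rhsim12G0182900, plus strand of chromosome 12, 26830821 to 26841846, 11026 bp) averaged 8.94 ± 0.577 FPKM at 35 °C and 7.72 ± 1.12 at 40 °C with melatonin, and 11.1 ± 1.31 at 25 °C, 10.1 ± 0.343 at 35 °C and 7.19 ± 1.33 at 40 °C when none was applied (SD, n = 3 each). It fell at 40 °C relative to 25 °C by edgeR's quasi-likelihood test, with a log2 fold change of -0.54 ± 0.133 and an adjusted p of 0.0021, and relative to 35 °C (-0.35, adjusted p = 0.032). It did not pass the test at 35 °C over 25 °C (-0.19, adjusted p = 0.25), for melatonin at 35 °C (-0.28, adjusted p = 0.15) or for melatonin at 40 °C (-0.09, adjusted p = 0.60). It carries 5 gene ontology terms. Activase loci can be close in sequence, and how reads shared between them were counted was not examined here, so the levels of weakly expressed loci are uncertain. This holds for MSTRG.21340 in every group and for Rubisco activase 1 at 25 °C, where it was the lower of these loci at 9.67 FPKM against 11.1, and so for the fold changes and ratios set against that level.

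The main transcript of the Rubisco small subunit fell at 40 °C relative to 25 °C and rose with melatonin at 40 °C. Among loci described as this subunit, which is encoded in the nucleus, almost all FPKM came from MSTRG.20588 (chromosome 12, 11012295 to 11016102). With melatonin its libraries had 2625, 2207 and 1926 FPKM at 35 °C, and 2223, 2136 and 3261 FPKM at 40 °C. Without melatonin its values were 2169.6, 2121 and 2121 FPKM at 25 °C, 1699, 2675 and 1761 FPKM at 35 °C, and 1439, 1397 and 1386 FPKM at 40 °C. The 40 °C libraries without melatonin were below all others, and 1 library each at 35 °C and at 40 °C with melatonin stood above its group. By edgeR's quasi-likelihood test the gene fell at 40 °C relative to 25 °C (log2 fold change -0.51, adjusted p = 0.014), rose with melatonin at 40 °C (0.66, adjusted p = 0.0042) and did not pass at 40 °C over 35 °C (-0.39, adjusted p = 0.057).

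The minor small subunit locus MSTRG.17466 averaged 1.98 ± 0.184 FPKM at 40 °C and 24.2 ± 7.17 at 25 °C, and fell by 3.52 on the log2 scale (adjusted p = 2.3e-10, edgeR's quasi-likelihood test). With melatonin at 40 °C it averaged 9.47 ± 1.71 FPKM and rose by 2.06 on that scale (adjusted p = 1.5e-07). The large subunit (MSTRG.51) is encoded in the plastid genome, whose transcripts are largely without polyA tails, so its level after polyA selection is not a measure of the total. It averaged 30.9 ± 4.54 FPKM at 35 °C and 9.12 ± 0.693 at 40 °C with melatonin, and 33.7 ± 1.73 at 25 °C, 60.0 ± 4.98 at 35 °C and 6.28 ± 3.13 at 40 °C when none was applied. Its fall at 40 °C relative to 25 °C passed the test (-2.34, adjusted p = 5.7e-07), and the melatonin difference at 40 °C did not (0.35, adjusted p = 0.23).

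Set against the sum of the 2 small subunit loci, the activase sum was 168% ± 25.2 at 35 °C with melatonin and 152% ± 32.3 at 40 °C with melatonin (SD, n = 3 each). These loci were matched by description, so any small subunit locus described in other words is missing from the sum. Without melatonin it was 238% ± 2.08 at 25 °C, 243% ± 55.7 at 35 °C and 52.7% ± 0.662 at 40 °C. The 40 °C libraries without melatonin were the only ones where small subunit transcripts exceeded activase transcripts per length. The wide SDs come with the spread of MSTRG.20588 between libraries.

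At 35 °C relative to 25 °C, most Calvin cycle genes were lower while several plastid chaperonin genes were higher. The Calvin cycle list held 35 loci matched by description, of which 32 were tested. Of these, 5 rose and 20 fell by edgeR's quasi-likelihood test, against 25.5% higher and 23.6% lower among all tested genes, and the median log2 fold change was -0.49, against 0.01 over all genes. Ribose-5-phosphate isomerase MSTRG.16100 fell to 30.4 ± 3.63 FPKM at 35 °C, against 149.9 ± 12.1 at 25 °C (-2.36, adjusted p = 1.1e-09). Its description names no compartment. MSTRG.9361, the locus of this enzyme described as chloroplastic, fell less (-0.83, adjusted p = 3e-08). At 40 °C over 25 °C the log2 fold changes of MSTRG.16100 and MSTRG.9361 were -2.5 and -0.14. Triosephosphate isomerase, which interconverts the triose phosphates, had MSTRG.5171 lower (-1.03, adjusted p = 2.7e-09) and MSTRG.19901 higher (0.71, adjusted p = 2.6e-07).

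The list of Rubisco partners held 39 loci, 37 of them tested, for assembly chaperones, chaperonins, thioredoxins and their reductases, carbonic anhydrases and related proteins. At 35 °C, 10 rose and 12 fell relative to 25 °C by edgeR's quasi-likelihood test, against 25.5% higher and 23.6% lower among all tested genes, with a median log2 fold change of -0.08, against 0.01. Of 9 tested loci of the plastid chaperonin, 5 rose and 0 fell, read against the same 25.5% and 23.6%. They included MSTRG.1639, the alpha subunit of the chaperonin that binds the Rubisco large subunit, with 340 ± 11.1 FPKM at 35 °C and 216 ± 8.72 at 25 °C (0.59, adjusted p = 1e-09). The beta subunit MSTRG.21490 averaged 125 ± 3.89 FPKM at 35 °C and 65.5 ± 1.43 at 25 °C (0.87, adjusted p = 6.4e-11). The co-chaperonin MSTRG.4912, which caps the chaperonin, averaged 4.18 ± 0.163 FPKM at 35 °C and 0.518 ± 0.396 at 25 °C (2.93, adjusted p = 3.3e-05).

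At 40 °C relative to 25 °C, more Calvin cycle genes fell than rose. Of the 32 tested, 7 rose and 22 fell, against 37.3% higher and 38.6% lower among all tested genes, and the median log2 fold change was -0.99, against -0.01 over all genes. Phosphoribulokinase MSTRG.12778, which makes the sugar that Rubisco carboxylates, averaged 99.8 ± 2.18 FPKM at 40 °C and 587 ± 12.3 at 25 °C (-2.47 in edgeR's quasi-likelihood test, adjusted p = 6.2e-16). Glyceraldehyde-3-phosphate dehydrogenase A, MSTRG.20127, averaged 335 ± 2.50 FPKM at 40 °C and 1048 ± 9.77 at 25 °C (-1.56, adjusted p = 8.3e-16). Transketolase MSTRG.12004 averaged 148 ± 4.98 FPKM at 40 °C and 731 ± 12.9 at 25 °C (-2.21, adjusted p = 6.5e-17). The triosephosphate isomerase MSTRG.19901 rose, with 165 ± 4.14 FPKM at 40 °C and 112 ± 11.3 at 25 °C (0.65, adjusted p = 1.6e-07).

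Enzymes with several loci did not all move one way at 40 °C. The aldolase MSTRG.6327 averaged 21.4 ± 1.35 FPKM at 40 °C and 223 ± 9.30 at 25 °C (-3.29, adjusted p = 9.1e-15 in edgeR's quasi-likelihood test). The aldolases MSTRG.20622 and MSTRG.20624, close together on chromosome 12, rose to 56.9 ± 3.96 and 90.2 ± 2.98 FPKM at 40 °C, against 11.5 ± 0.386 and 30.5 ± 1.28 FPKM at 25 °C. The descriptions do not say which aldolases enter the chloroplast. The chloroplast fructose-1,6-bisphosphatase MSTRG.7544 fell (-3.15, adjusted p = 1.2e-08), as did sedoheptulose-1,7-bisphosphatase MSTRG.16649 (-0.89, adjusted p = 7.6e-13), both of which act in regenerating the Rubisco substrate.

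Among the Rubisco partners at 40 °C, 14 of 37 rose and 19 fell relative to 25 °C by edgeR's quasi-likelihood test, against 37.3% higher and 38.6% lower among all tested genes, with a median log2 fold change of -0.36, against -0.01. RbcX MSTRG.1461, an assembly chaperone of the large subunit, averaged 18.7 ± 0.492 FPKM at 40 °C and 111 ± 2.31 at 25 °C (-2.47 in edgeR's quasi-likelihood test, adjusted p = 7.9e-15). Thioredoxin m MSTRG.19065 and thioredoxin f MSTRG.17387, small redox proteins that switch stromal enzymes, fell (-2.63 and -1.92, adjusted p = 5.6e-14 and 5e-13). The variable chain of ferredoxin-thioredoxin reductase, MSTRG.23928, averaged 452 ± 64.6 FPKM at 40 °C and 113 ± 5.11 at 25 °C (2.08, adjusted p = 1e-08). Of the loci for its catalytic chain, MSTRG.17183 and MSTRG.17196 fell (-1.4 and -0.91, adjusted p = 3.1e-08 and 3.4e-08). The weakly expressed catalytic chain locus MSTRG.14070 rose (3.78, adjusted p = 4.8e-07). The chaperonin loci MSTRG.1639, MSTRG.21490 and MSTRG.22485 rose (0.85, 1.02 and 2.41), while the beta-type MSTRG.16235 fell (-2.13, adjusted p = 6.2e-11). The descriptions of MSTRG.22485 and MSTRG.16235 name a chaperonin 60 subunit and do not name Rubisco.

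At 40 °C relative to 35 °C, 8 of 32 Calvin cycle genes rose and 14 fell, against 32.8% higher and 36.5% lower among all tested genes, with a median log2 fold change of -0.25, against -0.07. Of the partners 14 rose and 16 fell (median -0.34). The chloroplast carbonic anhydrase locus MSTRG.17143, which merges Rhsim10G0021200 and Rhsim10G0021300, averaged 277 ± 6.83 FPKM at 40 °C and 1692 ± 21.1 at 35 °C (-2.46 in edgeR's quasi-likelihood test, adjusted p = 2.5e-17). Carbonic anhydrases speed the exchange between carbon dioxide and bicarbonate. A second locus, MSTRG.14796, averaged 0.781 ± 0.236 FPKM at 40 °C and 180 ± 10.9 at 35 °C (-7.68, adjusted p = 7.5e-14).

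With melatonin at 35 °C, changes were small and mostly downward in both lists. Of the 32 Calvin cycle genes 2 rose and 12 fell, and of the 37 partners 1 rose and 17 fell, against 9.7% higher and 12.3% lower among all tested genes. The medians were -0.12 and -0.22 on the log2 scale, against 0.0 over all genes. Over all genes 2540 rose and 3223 fell with edgeR and TMM scaling, and 2654 rose and 3046 fell with RLE scaling. With limma on log2(FPKM + 1), which changes both the test and the input, 4630 rose and 2118 fell over all genes, 5 Calvin cycle genes rose and 9 fell, and 4 partners rose and 12 fell. The alpha chaperonin MSTRG.1639 averaged 260 ± 4.38 FPKM with melatonin and 340 ± 11.1 without (-0.49, adjusted p = 4.8e-08 in edgeR's quasi-likelihood test).

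With melatonin at 40 °C, more members of both lists rose than fell, alongside the higher levels of both activase genes. Of the 32 Calvin cycle genes 15 rose and 7 fell, and of the 37 partners 21 rose and 11 fell, against 32.9% higher and 26.2% lower among all tested genes. Medians were 0.27 and 0.38 on the log2 scale, against 0.10 over all genes. With RLE scaling 7810 of all genes rose and 7499 fell, against 8605 and 6861 with TMM, and the counts were 15 and 10 in the Calvin cycle list and 19 and 11 among the partners. With limma on log2(FPKM + 1), 10895 of all genes rose and 5839 fell, and the list counts were 20 and 7, and 22 and 9. Glyceraldehyde-3-phosphate dehydrogenase A, MSTRG.20127, averaged 916 ± 6.04 FPKM with melatonin and 335 ± 2.50 without (1.26 in edgeR's quasi-likelihood test, adjusted p = 3.4e-14). Phosphoribulokinase MSTRG.12778 averaged 269.8 ± 3.12 FPKM with melatonin and 99.8 ± 2.18 without (1.24, adjusted p = 2.5e-12).

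Among the partners at 40 °C, RbcX MSTRG.1461 averaged 66.7 ± 1.47 FPKM with melatonin and 18.7 ± 0.492 without (1.64 in edgeR's quasi-likelihood test, adjusted p = 2.1e-12). The chaperonin MSTRG.16235 averaged 20.6 ± 2.93 FPKM with melatonin and 2.16 ± 0.127 without (3.05, adjusted p = 4.8e-12). Several genes that were higher at 40 °C than at 25 °C were lower with melatonin, among them the aldolases MSTRG.20622 and MSTRG.20624 (-1.25 and -1.75). So was the variable chain of ferredoxin-thioredoxin reductase, MSTRG.23928, at 124 ± 1.57 FPKM with melatonin and 452 ± 64.6 without (-2.05, adjusted p = 2.7e-08). Of the catalytic chain loci, MSTRG.17183 and MSTRG.17196 were higher with melatonin (0.32 and 0.44), and the weakly expressed MSTRG.14070 was lower (-3.28). The summed chlorophyll a-b binding transcripts were also higher with melatonin at 40 °C, as given above, and their part in these differences was not tested.

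The word match that built the lists took in some members of other function. These were a 2-phosphoglycerate kinase (MSTRG.16807), a fructose-2,6-bisphosphatase (MSTRG.22056) and a pair of lysine methyltransferases, 1 of them tested, in the Calvin cycle list. In the partner list they were a pair of gamma carbonic anhydrases (MSTRG.14469 and MSTRG.21293), which belong to mitochondria, and thioredoxin reductase MSTRG.18299, for which no plastid is named. Without them, 22 Calvin cycle and 20 partner members were called at 35 °C over 25 °C (25 and 22 with them). At 40 °C over 25 °C, 26 and 30 were called without them, and 29 and 33 with them. With them, 32 and 37 members were tested. Of all tested genes, 49.1% and 75.9% were called in these comparisons. The lists also hold phosphoglycerate kinases and triosephosphate isomerases without a named compartment, which glycolysis uses too. The ribose-5-phosphate isomerases MSTRG.16100 and MSTRG.2319 likewise have no named compartment. In the partner list 8 tested loci merge more than 1 gene, such as MSTRG.20353, which joins a carbonic anhydrase and an alcohol dehydrogenase. Without merged loci, 16 partners were called at 35 °C over 25 °C and 26 at 40 °C over 25 °C. With merged loci the numbers were 22 and 33.

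**Figure D3:**
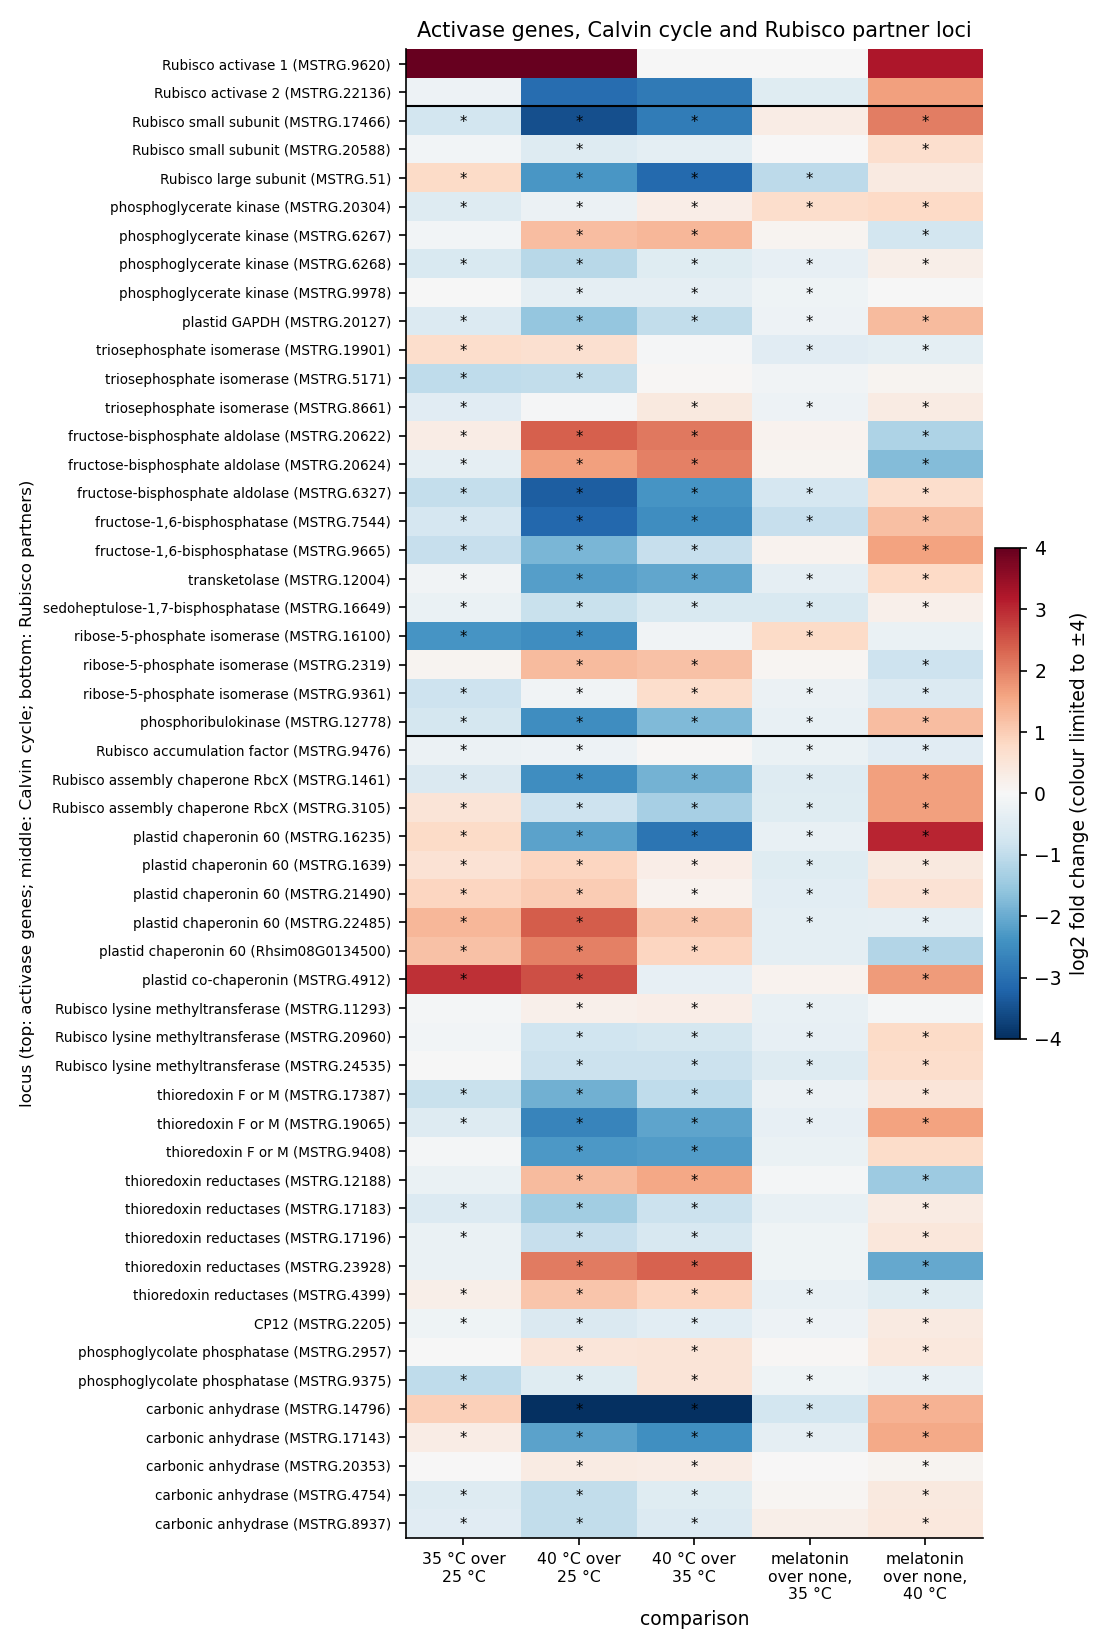
Heat map of log2 fold changes from edgeR, with comparisons across and loci down (activase genes at the top, then Rubisco subunits and Calvin cycle genes, then Rubisco partners, each list without its members of other function); red is higher, blue is lower, and a star marks an adjusted p under 0.05, which is not given for the activase genes. Rubisco activase 1 stands at 4.08 at both temperatures over 25 °C and at 3.24 for melatonin at 40 °C, and Rubisco activase 2 at -3.04 for 40 °C over 25 °C and 1.64 for melatonin at 40 °C.

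Likeness of pattern was measured over the 5 groups, as the root mean square difference of log2(FPKM + 1) group means after each gene was centred on its own mean. It was computed against 11091 tested genes with an informative description and a group mean of at least 5 FPKM. Rubisco activase 2 had many near neighbours, with 499 genes within 0.5. The nearest were a calcium uniporter protein (MSTRG.10277, 0.102), a sucrose-phosphate synthase (MSTRG.3599, 0.157), a CYP19-3 peptidyl-prolyl isomerase (MSTRG.16384, 0.162), a two-pore potassium channel (MSTRG.6356, 0.162) and a phosphoglycerate mutase-like gene (MSTRG.4008, 0.165). All 5 were far weaker, at no more than 24.0 FPKM in any group mean, where the added 1 narrows differences. With 0.1 added instead, 2 of the 5 stayed among the 5 nearest. The fitted log2 fold changes at 40 °C over 25 °C were -6.44 for MSTRG.10277 and -5.14 for MSTRG.3599, against -3.04 for Rubisco activase 2, and for melatonin at 40 °C they were 4.53 and 3.53, against 1.64.

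Rubisco activase 1 had no gene within 0.5 of its pattern. The measure is not scaled for the size of a gene's changes, so a fixed limit is stricter for a gene with large ones. Centred means ran from -3.85 to 3.43 for Rubisco activase 1 and from -2.11 to 1.02 for Rubisco activase 2. The nearest were MSTRG.17980, described as Cleaved like (1.0), a cyclic pyranopterin monophosphate synthase (MSTRG.13347, 1.01), a chloroplast stromal heat shock protein of the HSP70 type (MSTRG.18891, 1.07), a class I small heat shock protein (MSTRG.16626, 1.07) and a zinc metallopeptidase (MSTRG.23797, 1.10). With 0.1 added in place of 1, 1 of the 5 stayed among the 5 nearest. The median over all genes compared was 2.33 for Rubisco activase 1 and 1.12 for Rubisco activase 2, and the activase genes differed from each other by 2.91. The small heat shock protein MSTRG.16626 averaged 188 ± 0.588 FPKM at 35 °C with melatonin and 2047 ± 46.9 at 40 °C with melatonin. Without melatonin it averaged 4.77 ± 0.690 FPKM at 25 °C, 104 ± 2.89 at 35 °C and 665 ± 15.2 at 40 °C, a log2 fold change of 2.83 for 40 °C over 35 °C. The zinc metallopeptidase MSTRG.23797 averaged 272 ± 1.70 FPKM at 40 °C with melatonin, and without it 117 ± 2.83 FPKM at 40 °C and 115 ± 5.30 at 35 °C, a log2 fold change of 0.18.

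**Figure D4:**
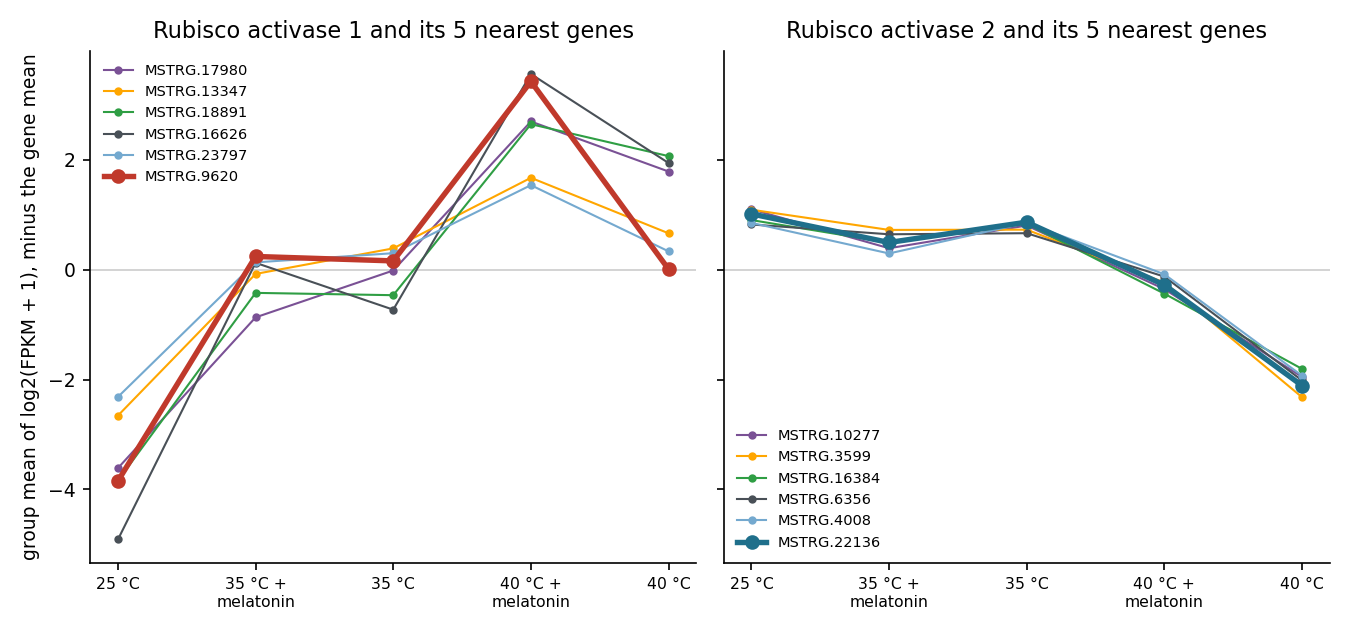
Centred group means of log2(FPKM + 1) over the 5 groups for each activase gene and its 5 most alike genes; thick lines are the activase genes. The lines near Rubisco activase 2 lie within 0.165 of it by root mean square difference, and those near Rubisco activase 1 no closer than 1.0.

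Genes beside Rubisco activase 1 were weakly expressed. The 3 listed on each side of MSTRG.9620 all stayed at or below 8.85 FPKM in every group mean. The nearest are a pair of overlapping loci without a description that end 845 bp before it by coordinate. One of them, MSTRG.9618 on the plus strand from 31565537, averaged 8.85 ± 0.644 FPKM at 40 °C and 0.426 ± 0.123 at 25 °C, but was lower, not higher, with melatonin at 40 °C (-0.49, adjusted p = 0.012 in edgeR's quasi-likelihood test). The other, MSTRG.9619 on the minus strand, carries the same gene name in the table as MSTRG.9620. It had 0, 0 and 7.30 FPKM at 40 °C with melatonin and 0 in all 3 libraries at 40 °C without. Its fitted difference with melatonin passed the test (adjusted p = 0.029) but came from 1 library, replicate 3, with 1705 counts. MSTRG.9618 had 1703 counts in that library, and at 25 °C both loci had 68, 124 and 113 counts. In every other library MSTRG.9619 had 0 counts. How reads were assigned between these overlapping loci was not examined, so this is not read as a melatonin difference. Directly upstream of MSTRG.22136 on the same strand, the sugar symporter-like gene MSTRG.22135 ends 28 bp before it. It averaged 24.5 ± 1.63 FPKM at 35 °C and 22.8 ± 0.811 at 40 °C with melatonin, and 32.3 ± 1.77 at 25 °C, 34.7 ± 0.854 at 35 °C and 22.2 ± 1.05 at 40 °C when none was applied.

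The next gene downstream of MSTRG.22136 by coordinate, outside its own span, is Rhsim13G0077500 on the minus strand, described as a hypothetical protein. It averaged 5.38 ± 0.104 FPKM at 40 °C and 0.626 ± 0.0454 at 25 °C (3.19, adjusted p = 1.9e-11 in edgeR's quasi-likelihood test). With melatonin at 40 °C it averaged 2.20 ± 0.131 FPKM, against 5.38 ± 0.104 without (-1.48, adjusted p = 1.2e-07). The gene after it, TOC75-3 (MSTRG.22138), codes for the channel through which nucleus-encoded proteins cross the outer chloroplast envelope. With melatonin at 40 °C it averaged 76.4 ± 0.529 FPKM, lower than the 117 ± 1.3 FPKM without (-0.80 in edgeR's quasi-likelihood test, adjusted p = 6.8e-10). At 40 °C without melatonin it was above the 34.3 ± 0.755 FPKM at 25 °C (1.85, adjusted p = 2.6e-14). An assembled locus on the opposite strand, MSTRG.22137 (chromosome 13, 7742733 to 7744150), lies inside MSTRG.22136. It had 1359 counts in replicate 3 at 35 °C, which is 0.174% of the 779081 counts of MSTRG.22136 in that library, and 0 in the other 14 libraries. The strand used in counting is not stated, so reads of this pair cannot be told apart.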

How the data were processed

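Tools named in the submitters' processing notes are HISAT2 2.0.4, StringTie 1.3.4d and cutadapt 1.9, without their roles or order. The deposited table holds a raw count and an FPKM value per gene and library, per the file headers. Even numbers made up 58.8% to 63.0% of the counts between 1 and 20, so totals may count both mates of a fragment. Columns whose names hold CK were taken as melatonin-free libraries and those with MT as melatonin libraries, after the design text. Another 6 per-sample columns match no label and were not used.

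Counts were fitted with edgeR 4.0.16 (R 4.3.3; quasi-likelihood test, TMM scaling, filterByExpr, 5 group means, 10 residual degrees of freedom). It tested 26183 genes, two-sided, with Benjamini-Hochberg adjustment over all of them. A run on simulated counts changed few genes, evenly up and down, so it cannot check the scaling between libraries in these data. Levels are deposited FPKM values. Alternatives were RLE scaling, no filter, DESeq2 1.42.0, limma 3.58.1 on log2(FPKM + 1) or log2(FPKM + 0.1), compared groups alone, a replicate block and leaving out each library. For the lists, merged loci or members of other function were also left out.

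The members, lists and tests were chosen with earlier results of these data known. Named list genes are the 3 largest called rises and falls per list and comparison with at least 5 FPKM in a group, and the most abundant locus of each enzyme, and the text draws on these. MSTRG.21490, MSTRG.9361, MSTRG.17183, MSTRG.17196, MSTRG.14070 and MSTRG.20353 were named after their values were seen. So were the list members of other function. Like genes and neighbours are the 5 nearest and the 3 on each side.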

Additional observations from a re-analysis of the deposited data

Results flagged for a closer look

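Rubisco activase 2 (MSTRG.22136) stood out because melatonin went with a lower level in every library at 35 °C and a higher level in every library at 40 °C. Its melatonin effect at 40 °C minus that at 35 °C was 2.12 on the log2 scale. The gene was chosen with its levels known, so this difference was not tested. In the interaction term of edgeR's quasi-likelihood test, 48.5% of all tested genes had a melatonin effect that differed between the temperatures. In the Calvin cycle list 22 of 32 tested members did, 16 with a higher effect at 40 °C and 6 with a lower one (median 0.38, against 0.10 over all genes). In the Rubisco partner list 25 of 37 did, 18 higher and 7 lower (median 0.36). RbcX MSTRG.1461 was among them (2.15, adjusted p = 8.4e-12), as was phosphoribulokinase MSTRG.12778 (1.55, adjusted p = 2e-11).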

How the results depend on the processing

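Counts of called genes and list members, both directions together, stayed within 1.5 times the reported ones under every alternative run. By direction, melatonin at 35 °C moved further with limma on log2(FPKM + 1), to 4630 higher of all genes (2540 reported), 5 higher in the Calvin cycle list (2 reported) and 4 higher among the partners (1 reported). The replicate block gave 12471, 19589, 17865, 5455, 15063 and 12334 genes over the comparisons in the order 35 °C over 25 °C, 40 °C over 25 °C, 40 °C over 35 °C, melatonin at 35 °C, melatonin at 40 °C and the difference of melatonin effects, against 12846, 19861, 18154, 5763, 15466 and 12694 without it. Same-numbered libraries did not deviate together over all tested genes (correlations -0.0505 to 0.0273 over 30 pairs). This cannot show whether the numbers mark a shared plant or batch, which the labels do not say. The activase fold changes moved with the scaling or test by more than the tight spread between libraries. For Rubisco activase 1 the log2 fold change at 40 °C over 35 °C changed sign, to 0.0656 with RLE and with DESeq2, 0.0115 without a filter and 0.0244 with the groups alone, and was -0.15 with limma at either pseudocount. Melatonin at 35 °C turned to 0.0809 and 0.0813 with limma at pseudocounts 1 and 0.1. Its other moved values were 3.86 and 3.98 at 40 °C over 25 °C with limma, 3.16 (RLE, DESeq2), 3.17 (groups alone), 3.42 and 3.43 (limma) for melatonin at 40 °C, and 3.17 (RLE, DESeq2), 3.34 and 3.35 (limma) for the difference of effects. For Rubisco activase 2, RLE and DESeq2 gave -0.25, -3.01, -2.76, -0.46, 1.57 and 2.03 in the order above. Limma gave -0.15, -3.13, -2.97 and -2.98, -0.37, 1.83 and 2.20. No filter gave -0.46 for melatonin at 35 °C and 2.07 for the difference, and groups alone gave -0.45, 1.57 and 2.07 for the melatonin effects. The cause of the moves was not tested.

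Leaving out 1 library at a time gave -0.0099 to 0.0337 for Rubisco activase 1 at 40 °C over 35 °C, -0.0302 to 0.0009 for melatonin at 35 °C, 3.19 to 3.24 at 40 °C and 3.19 to 3.27 for the difference. For Rubisco activase 2 it gave -0.22 to -0.20 at 35 °C over 25 °C, -3.04 to -3.01 at 40 °C over 25 °C, -2.83 to -2.80 at 40 °C over 35 °C, -0.48 to -0.45 and 1.61 to 1.65 for melatonin at 35 °C and 40 °C, and 2.06 to 2.12 for the difference. The log2 change of the summed FPKM was -0.157, -2.715, -2.558, -0.463 and 2.145 after TMM rescaling, against -0.101, -2.796, -2.694, -0.352 and 2.337 as deposited. From counts without length correction, Rubisco activase 1 made up 3.34% and 35.1% at 35 °C and 40 °C with melatonin, and 0.129%, 2.47% and 15.2% at 25 °C, 35 °C and 40 °C without it. Without 1 library, its FPKM shares ranged over 4.78 to 4.82%, 43.9 to 44.2%, 0.182 to 0.192%, 3.51 to 3.60% and 20.4 to 20.9% in that order of groups. With a pseudocount of 0.1, 1 of the 5 genes most like Rubisco activase 1 and 2 of those most like Rubisco activase 2 stayed among the 5 nearest. The median of all genes for melatonin at 40 °C was 0.101 with TMM, 0.026 with RLE and 0.162 with limma.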

Other observations

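All 3 activase loci carry the KEGG orthology label K02960, which the table places under the ribosome, and 5 loci of the table carry it in all. The other two are a 40S ribosomal protein S16-like gene (MSTRG.19767) and a hypothetical protein (MSTRG.7845). Any pathway count built on that label would place Rubisco activase 1 and Rubisco activase 2, with fitted log2 fold changes of 4.08 and -3.04 at 40 °C over 25 °C, among ribosomal genes.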
